A study of Bos taurus with 6 samples.

Results

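Solute carriers are a large group of membrane transport proteins, and their genes are named SLC, a family number, the letter A and a member number. The genes described here are the 94 solute carrier genes that were detected over a set signal in bovine bone marrow mesenchymal stem cells (MSCs) cultured in agarose. A gene entered when a probe set named for it alone had a symbol of that form and a signal over 50 on at least 1 of the 6 arrays. SLC11A1 was left out by name. The array named 163 such genes among 9155 genes with a single symbol, and 68 of them stayed at or under 50 on every array. Where several probe sets shared a gene, the brightest by mean log2 signal stood for it. Just inside the limit, the highest signals of SLC37A1, SLC5A2 and SLC39A4 were 52.0, 53.0 and 54.7, and just outside it those of SLC16A13, SLC43A1 and SLC46A3 were 46.3, 46.3 and 45.5. The limit was met both with and without the growth factor TGF-beta3 by 59 members, only with it by 25 and only without it by 10.

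The cells were held in agarose hydrogel in defined medium, a culture in which cartilage matrix can form around the cells. In 3 conditions the medium had no TGF-beta3, the factor that drives MSCs towards cartilage, and constructs were taken at day 3, day 21 and day 42. In another 2 conditions the medium contained TGF-beta3 and constructs were taken at day 21 and day 42. In the last condition, constructs grown for 21 days with TGF-beta3 were dynamically compressed for 21 further days with TGF-beta3 still present. Each condition was 1 Affymetrix array of amplified total RNA, so no condition has a replicate. The sources used here do not give donors, pooling or the loading regimen.

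Solute carriers move nutrients and ions across membranes by letting them flow down a gradient, by exchanging a substance for another or by coupling uptake to sodium or protons. Cartilage cells rely on glycolysis, and so on glucose carriers and on carriers that export lactate, and their sulphated matrix draws on sulphate, nucleotide sugars and amino acids such as glycine, proline and glutamine. Fat-storing cells, the alternative fate of marrow MSCs, carry the insulin-responsive glucose transporter SLC2A4 and import fatty acids into mitochondria with the help of SLC25A20.

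Signals are the deposited MAS5 values, in arbitrary units. Values under a floor of 15.1, the level under which 40% of all signals lay, were set to the floor, and a fold against a condition under it is written "at least". Between 80 and 88 of the 94 members were above the floor on each array, and 65 were above it on all 6. The array median signal was between 22.3 and 34.9 and the ratio of 3' to 5' GAPDH probe sets between 1.51 and 2.27. The median signal of the hybridisation spikes, bacterial transcripts added for hybridisation, was between 2618 and 3727 on 4 arrays and 7304 and 5823 on the unloaded and loaded day 42 arrays with TGF-beta3. The spikes therefore differed by 1.32 (log2) in the day 42 TGF-beta3 comparison and by 0.30 at day 21, and their part in the results was not tested. All 8 cartilage marker genes rose with TGF-beta3, by limma, with summed signals of 8205, 10582 and 9476 on the arrays without it (days 3, 21 and 42) and 35302, 61092 and 55167 on those with it (days 21 and 42, and loaded). Of the 2 endothelial markers tested ERG rose and TEK did not pass (-0.37, log2), and another 3 were under the floor on every array. Any part of endothelial cells in the members' values was not tested. Of the marrow stromal markers that define the labelled cell type, LEPR and NGFR were under the floor on all 6 arrays. Of the other 9, NT5E rose and CD44, CXCL12 and VCAM1 fell with TGF-beta3.

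The main comparison asked which transporter genes differed with TGF-beta3, using the arrays with and without it at days 21 and 42 in 1 limma fit with a term for day. Of the 88 members that could be tested, 15 rose and 9 fell at a Benjamini-Hochberg adjusted p under 0.05. The share that rose was 17%, against 5.84% of the 14839 probe sets in the fit. The share that fell was 10.2%, against 7.33%. Among probe sets with a signal over 50 on at least 1 array, which is the condition the members met, the shares that rose and fell were 6.75% and 8.48%. A member over the limit in 1 arm only had to differ. Of the 59 members over it in both arms, 9 rose (15.3%) and 4 fell (6.78%). Of all fitted probe sets over 50 on at least 1 array of each arm, 6.12% rose and 7.38% fell. Those probe sets were not cut to the brightest of each gene, as the members were. The median difference of the tested members was 0.14 (log2, TGF-beta3 minus none), and that of all fitted probe sets was 0.06.

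The fit has 1 residual degree of freedom and borrows its spread from all probe sets, so its p-values rest on day 21 and day 42 behaving alike. With arrays scaled to the spikes, the split of 15 risen and 9 fallen members became 6 and 10, and SLC16A3, SLC38A3, SLC6A9, SLC7A5, SLC6A20 and SLC7A1 were the members that still rose. Without a term for day, 6 rose and 3 fell. Leaving out the array without TGF-beta3 of day 21, or that of day 42, in a fit with no day term, left 3 risen and 0 fallen members (SLC16A3, SLC1A5 and SLC2A1 rose in both). Leaving out the day 21 TGF-beta3 array gave 18 risen and 13 fallen members, of which 11 and 9 were also called in the full fit. On the signal itself, all 3 arrays with TGF-beta3 lay above all 3 without it for 27 of 94 members, which is 28.7% against 14.6% of all probe sets and 18.5% of those over 50. All 15 risen members were among them. All 3 lay below for 15 members (16%, against 12.7% and 16.9%), among them 6 of the 9 that fell. The fit used 4 of these 6 arrays, so the separation of arms is not independent of the calls. Through a signal over 50 in 1 arm only, 6 of the 15 risen and 5 of the 9 fallen members had entered. The separation was not counted apart for members over 50 in both arms.

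**Figure D1:**
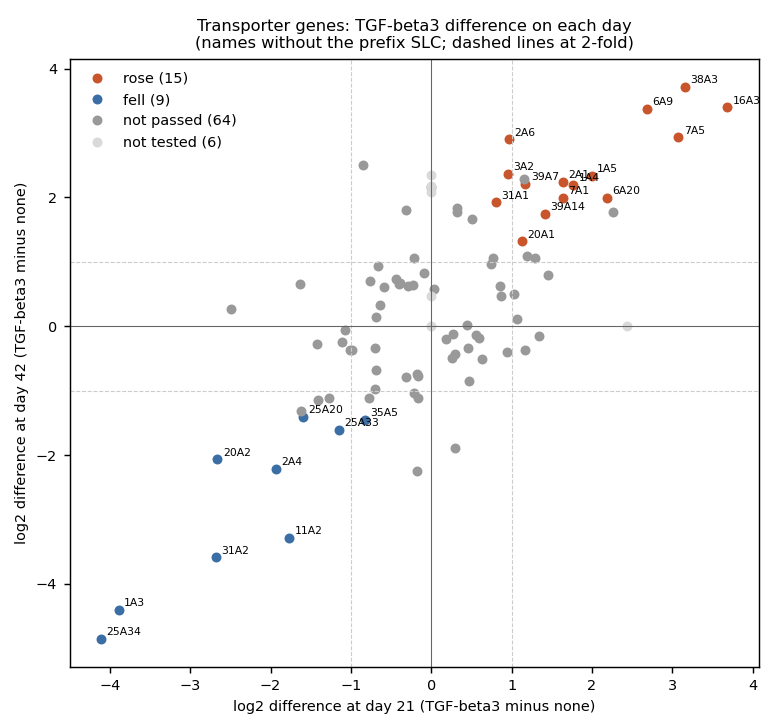
Each point is 1 of the 94 transporter genes, with its log2 difference between the arrays with and without TGF-beta3 at day 21 (x axis) and day 42 (y axis). Colours give the limma call over both days. The 15 risen genes lie in the upper right and the 9 fallen genes in the lower left, and the 6 genes not tested are drawn in light grey.

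By substrate, the carriers of amino acids and peptides held the most risen genes. Of 14 members, all tested, 7 rose and 1 fell, and the median difference was 1.35 (log2). SLC38A3, SLC6A20, SLC7A1 and SLC7A5 entered through a signal over 50 only with TGF-beta3, and SLC1A3, which fell, only without it. Of the 7 amino acid carriers over 50 in both arms, SLC1A4, SLC1A5 and SLC3A2 rose and 0 fell, beside background shares of 6.12% and 7.38%. Metal carriers had 3 risen and 2 fallen genes of 14 tested, and sugar carriers 2 risen and 1 fallen of 4 tested. None of the 22 tested members of the SLC25 family, the carriers of the mitochondrial inner membrane and of peroxisomes, rose, and 3 fell (13.6%), with a median of -0.58. With 5.84% of all probe sets risen and 7.33% fallen, these counts are near the background, and SLC25A28 passed as higher in 6 of the alternatives tried. No member rose or fell among 6 acid-base, chloride and cation exchangers, 7 carriers of vitamins, choline and lipids, or 6 carriers of organic ions and other cargo. At the background shares a class of that size would hold under 1 call in each direction, so the absence of calls is not a result about these classes.

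**Figure D2:**
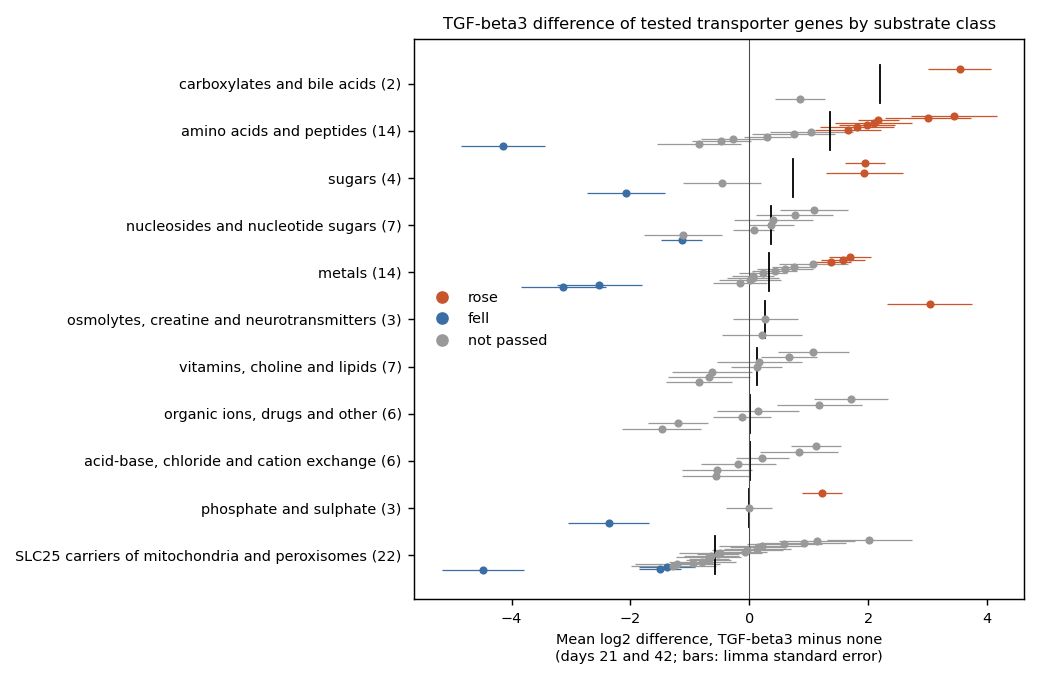
Points are the mean log2 difference over days 21 and 42 (TGF-beta3 minus none) of each of the 88 tested transporter genes, with the limma standard error as a bar, grouped by substrate; numbers in brackets are tested genes and black ticks are group medians. The group median was 1.35 for amino acid and peptide carriers and -0.58 for the SLC25 carriers.

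The 7 amino acid carriers that rose with TGF-beta3 include exchangers of neutral amino acids, sodium-driven importers and the cationic amino acid carrier. They rose by between 1.66 and 3.44 (log2, taking values under the floor as the floor). Signals are given in the order day 3, day 21 and day 42 without TGF-beta3, then day 21, day 42 and loaded day 42 with it. The matched array is that of the same day without TGF-beta3.

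SLC1A5, the exchanger that brings glutamine into cells, had signals of 552, 353 and 364 without TGF-beta3 and 1408, 1840.5 and 1589.6 with it. It exceeded the matched array 3.99-fold (day 21) and 5.05-fold (day 42), a mean of 2.17 ± 0.34 (log2, SE; limma adjusted p = 3.4e-06). The groups did not overlap, and the lowest array with TGF-beta3 was well over the highest without. SLC1A4, its relative that exchanges alanine, serine and cysteine, gave 88.5, 106 and 74.8 without TGF-beta3 and 359, 342 and 154 with it. It rose by 1.98 ± 0.48 (log2; limma adjusted p = 0.00244), with the loaded array the lowest of the 3 with TGF-beta3. The second probe set of SLC1A4 did not pass (1.11; limma adjusted p = 0.197), and the call was lost with the median over both probe sets (1.54), with median centring (1.73), with spike scaling (1.17) and without the day term. That probe set was highest on the loaded array (57.0, against 35.7 unloaded at day 42).

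SLC7A5 and SLC3A2 encode the light and heavy chains of the carrier that takes up leucine and other large neutral amino acids. SLC7A5 gave 34.4, 20.2 and 9.70 without TGF-beta3 and 170.1, 116 and 141 with it, a gain of 8.42-fold (day 21) and at least 7.63-fold (day 42) (3.00 ± 0.72 on the log2 scale with day 42 at the floor; limma adjusted p = 0.00219). SLC3A2 gave 31.0, 86.6 and 61.7, then 168, 318 and 225, 1.94-fold and 5.16-fold higher (1.66 ± 0.55 on the log2 scale; limma adjusted p = 0.0368). Both chains thus rose in the main fit, and neither overlapped between arms. The SLC3A2 call was lost with median centring (limma adjusted p = 0.236), spike scaling (0.589), no variance trend (0.0971) and no day term (0.141). It was also lost when the loaded day 42 array stood in for the unloaded array (0.0553). The SLC7A5 call was lost with a floor of 100 (limma adjusted p = 0.186). SLC7A7, another light chain that pairs with SLC3A2, gave 80.0 and 96.4 without TGF-beta3 and 29.9 and 79.8 with it at days 21 and 42 and did not pass the test (-0.85 ± 0.70).

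SLC38A3, a sodium-coupled carrier of glutamine, asparagine and histidine, was under the floor on all 3 arrays without TGF-beta3 and gave 135, 199.9 and 192 with it. It exceeded the matched array by 8.93-fold or more (day 21) and 13.2-fold or more (day 42), both lower bounds (limma adjusted p = 0.000413). Its second probe set also rose, by 3.10 (log2). SLC6A20, a carrier of proline and related imino acids, was likewise under the floor on every array without TGF-beta3 and gave 69.0, 60.2 and 126 with it. The gain was at least 4.56-fold (day 21) and at least 3.98-fold (day 42) (limma adjusted p = 0.0231). The SLC6A20 call was lost with the floor at the 60th percentile (limma adjusted p = 0.638) and without the day term (0.0698). With a floor of 100 SLC6A20 was not among the risen members.

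SLC7A1, which carries arginine and lysine, gave 21.2 at day 3 and was under the floor at days 21 and 42 without TGF-beta3. With it the signals were 47.0, 60.4 and 143, gains of at least 3.10-fold (day 21) and at least 3.99-fold (day 42) (limma adjusted p = 0.0449), with the loaded array the highest. The SLC7A1 call was lost without the variance trend (limma adjusted p = 0.0549), without the day term (0.089) and with the loaded array added (0.0525). With the floor at the 60th percentile or at 100, SLC7A1 was not among the risen members. SLC6A9, a glycine transporter grouped here with the neurotransmitter carriers of its family, gave 28.6, 18.7 and 10.4 without TGF-beta3 and 119.7, 158 and 237 with it. It exceeded the matched array 6.41-fold (day 21) and at least 10.4-fold (day 42) (limma adjusted p = 0.00201). A second probe set of SLC6A9 did not pass (1.53; limma adjusted p = 0.0883). Glycine and proline are abundant residues of collagen.

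SLC1A3, a glutamate and aspartate carrier, was the 1 amino acid carrier that fell. Without TGF-beta3 its signal was 29.2 at day 3, 224 at day 21 and 320.0 at day 42, and it was under the floor on all 3 arrays with TGF-beta3. It lay at least 14.8-fold (day 21) and at least 21.1-fold (day 42) under the matched array (limma adjusted p = 1.47e-05). The other glutamate carrier measured, SLC1A1, gave 17.2 and 26.0 without TGF-beta3 and 15.4 and under the floor with it, and did not pass the test. SLC38A2, the widely expressed neutral amino acid importer known for its response to starvation, gave between 3932 and 4436 without TGF-beta3 and between 4220.3 and 6851 with it and did not pass (0.30 ± 0.39, log2).

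Many amino acid carriers belong with the genes that cells switch on through the transcription factor ATF4 when amino acids run short. Of 12 such genes outside the solute carriers, 7 rose, 0 fell and 5 did not pass, with a median of 1.52 (log2). Of all fitted probe sets 5.84% rose and 7.33% fell. The part of ATF4 in the carriers' values was not tested. ATF4 itself gave 653, 1162 and 1355 without TGF-beta3 and 2622, 3473 and 2309 with it (1.27 ± 0.34, log2; limma adjusted p = 0.00785). The enzymes of serine synthesis rose together. PHGDH, the first enzyme, gave 51.8, 43.8 and 34.7 and then 232, 415 and 260.3, a rise of 2.99 (log2), while PSAT1 rose by 1.78 and PSPH by 2.14. SHMT2, which makes glycine from serine in mitochondria, rose by 1.78, SESN2, a leucine sensor, by 1.92, and CHAC1, which breaks down glutathione, by 3.22. The stress genes DDIT3 (0.48), TRIB3 (0.76), ATF3 (0.94) and CEBPB (1.08) did not pass, nor did VLDLR (-0.72).

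With arrays scaled to the spikes, 4 of the 14 amino acid carriers and 1 of the 12 response genes rose. With median centring these counts were 5 and 4, and without the day term 3 and 4. With 1 array also left out of the fit without the day term, they were 1 and 1 without the day 21 array that lacked TGF-beta3, 1 and 2 without that of day 42, 4 and 6 when the TGF-beta3 array of day 21 was dropped, and 3 and 6 when that of day 42 was.

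**Figure D3:**
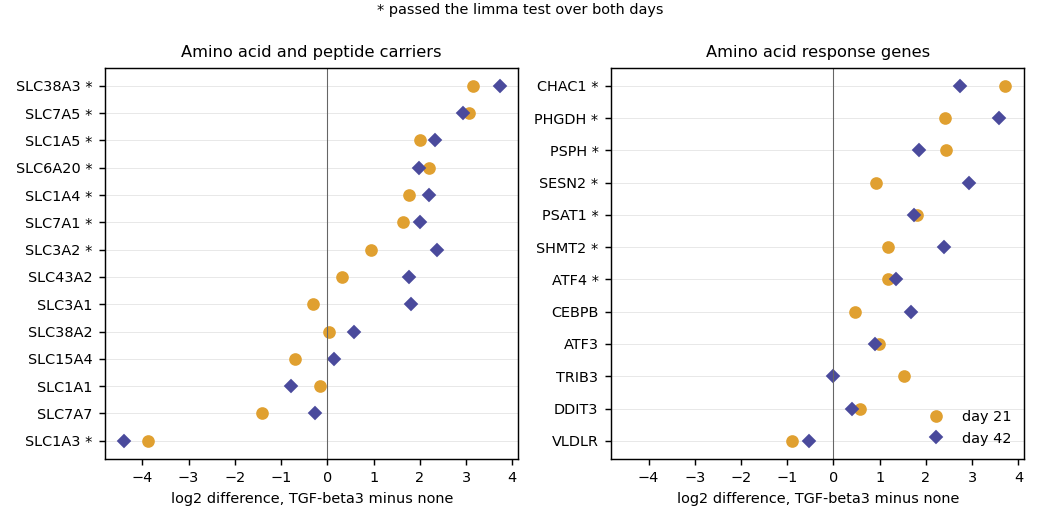
Log2 differences (TGF-beta3 minus none) at day 21 (circles) and day 42 (diamonds) of the 14 amino acid and peptide carriers (left) and 12 amino acid response genes (right), any value under the floor being drawn from the floor. Stars mark the genes that passed the limma test over both days, 7 risen and 1 fallen on the left and 7 risen on the right.

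Among carriers of glucose and lactate, SLC2A1 and SLC16A3 rose and the insulin-responsive SLC2A4 fell. SLC2A1, the basal glucose transporter of most cells, gave 481, 489.9 and 445 without TGF-beta3 and 1523, 2115 and 2808 with it. It exceeded the matched array 3.11-fold (day 21) and 4.75-fold (day 42), a mean of 1.94 ± 0.34 (log2; limma adjusted p = 2.61e-05). Its arrays without TGF-beta3 lay close together and every array with it lay above them. SLC16A3, the carrier with which glycolytic cells export lactate, gave 161, 23.8 and 70.4 and then 305, 744 and 745. It exceeded the matched array 12.8-fold at day 21 and 10.6-fold at day 42 (3.54 ± 0.53, log2; limma adjusted p = 1.16e-06). The other probe sets of SLC16A3 gave 1.40 and 0.45 (log2) and did not pass. The SLC16A3 call was lost with the median over its probe sets (limma adjusted p = 0.0762) and without the day term (0.0503). SLC16A1, a lactate carrier that works in both directions, gave 248, 224 and 147 and then 374, 286 and 306 (0.85 ± 0.42; limma adjusted p = 0.19).

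SLC2A6, a hexose transporter of lysosomal membranes, gave 29.5, 113 and 93.0 with TGF-beta3. Without it, day 3 was at 15.3 and days 21 and 42 were under the floor, which gives a gain of at least 1.95-fold (day 21) and at least 7.49-fold (day 42) (limma adjusted p = 0.0387). The SLC2A6 call was lost with the floor at the 25th percentile (limma adjusted p = 0.1), without the variance trend (0.0805), without the day term (0.191), with the loaded array added (0.0687) and with spike scaling (0.0671). SLC2A4 gave 57.9 at day 21 and 70.4 at day 42 without TGF-beta3 and was under the floor on the other 4 arrays. With TGF-beta3 it lay at least 3.82-fold (day 21) and at least 4.65-fold (day 42) under the matched array (limma adjusted p = 0.0239), and its low day 3 value means that the arms overlapped. SLC2A8 did not pass (-0.46 ± 0.66).

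Of 13 genes of glucose and lactate handling outside the family, 4 rose and 0 fell, beside 5.84% and 7.33% of all fitted probe sets. The risen genes were HIF1A, the oxygen-responsive transcription factor (1.61, log2), and the glycolytic enzymes ENO1 (1.41), GAPDH (1.37) and PKM (1.02). LDHA, which makes lactate, gave 4374, 1724 and 2489 and then 3547, 4509 and 3991 and did not pass (0.95 ± 0.36). BSG, the protein that brings lactate carriers to the membrane, did not pass (0.14). With arrays scaled to the spikes none of the 13 rose (1 fell) and none of the sugar carriers rose.

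The metal carriers moved in both directions. The 3 that rose were SLC39A7, SLC39A14 and SLC31A1, and the 2 that fell were SLC31A2 and SLC11A2. SLC39A7, which releases zinc from the endoplasmic reticulum and Golgi, gave 1065, 976 and 869 without TGF-beta3 and 2197, 4025 and 3158 with it, 2.25-fold and 4.63-fold higher (1.69 ± 0.35, log2; limma adjusted p = 0.000336). SLC39A14, an importer of zinc, iron and manganese, gave 385, 245 and 264 and then 651, 885 and 899 (1.58 ± 0.37; limma adjusted p = 0.00151). Neither gene overlapped between arms.

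The copper carriers parted in the main fit. SLC31A1, the high-affinity copper importer, gave 443, 419 and 444 without TGF-beta3 and 733, 1686 and 1357 with it, 1.75-fold and 3.80-fold higher (1.37 ± 0.35, log2; limma adjusted p = 0.00474). The SLC31A1 call was lost with median centring (limma adjusted p = 0.229), without the variance trend (0.144) and without the day term (0.142). SLC31A2, its relative of endosomes and lysosomes, gave 78.2, 167 and 182 without TGF-beta3 and 26.1, 3.41 (under the floor) and 22.5 with it. It lay 6.39-fold (day 21) and at least 12.0-fold (day 42) under the matched array (limma adjusted p = 0.00125).

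SLC11A2, the proton-coupled importer of ferrous iron, gave 108, 143 and 165 without TGF-beta3 and 42.0, 17.0 and then an under-floor value with loading. It fell by 2.52 ± 0.71 (log2; limma adjusted p = 0.0103). The other 9 tested metal carriers, 6 of the SLC39 family of zinc importers and 3 of the SLC30 family of zinc exporters, lay between -0.16 and 1.08 (log2) and did not pass. Among them SLC39A13, which is needed for collagen in connective tissue, gave 135, 139 and 157 and then 92.6, 239.8 and 326 (0.01 ± 0.52). The second probe set of SLC39A13 gave 1.62 (log2) and did not pass either (limma adjusted p = 0.085). SLC30A2, a zinc exporter, was not tested. It was under the floor on 4 arrays and gave 68.3 and 51.9 on the unloaded and loaded day 42 arrays with TGF-beta3.

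Of 11 genes of metal handling, 3 rose and 1 fell, beside 5.84% and 7.33% of all fitted probe sets. The metallothioneins, small proteins that bind zinc and copper, rose: MT1A gave 119, 133 and 162 and then 1127, 335 and 1869.8, and MT2A gave 404, 135 and 255 and then 1543, 694 and 4202. Their day 42 values were the lowest with TGF-beta3 and their loaded values the highest. CP, the copper-containing ferroxidase, rose by 1.47 (log2), and ACO1, the iron-responsive RNA-binding protein, fell by 1.91. The iron stores FTH1 (0.67) and FTL (-0.04) and the transferrin receptor TFRC (-1.71) did not pass. With arrays scaled to the spikes, none of the metal carriers and none of the metal handling genes rose, while SLC31A2, SLC11A2 and ACO1 still fell. With median centring 1 metal carrier rose, and without the variance trend 0 rose.

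The ubiquitous phosphate importers also parted. SLC20A1 gave 616, 598 and 526 without TGF-beta3 and 1309.6, 1311 and 1764 with it, 2.19-fold and 2.49-fold higher (1.22 ± 0.34, log2; limma adjusted p = 0.00895). SLC20A2 gave 117, 141 and 195 and then 22.4, 46.6 and 70.1, 6.33-fold and 4.19-fold lower (-2.36 ± 0.68, log2; limma adjusted p = 0.0126). Each arm of each gene lay wholly on 1 side of the other arm. The sulphate carrier SLC13A4 gave between 289 and 458 without TGF-beta3 and between 252 and 522 with it, and did not pass (-0.01 ± 0.38). SLC34A1, the phosphate carrier of kidney, was under the floor on 4 arrays, gave 64.4 and 44.7 on the unloaded and loaded day 42 arrays with TGF-beta3, and was not tested. With median centring or with arrays scaled to the spikes SLC20A1 did not pass (0.98 and 0.42). Nor did SLC20A1 pass without the variance trend or without the day term. SLC20A2 did not pass with a floor of 100 or without the day term.

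Sulphate has to be activated before it is built into chondroitin sulphate. Of 8 genes of that route, 3 rose and 0 fell, beside 5.84% and 7.33% of all fitted probe sets. PAPSS1, which makes the sulphate donor, gave 587, 394 and 344 and then 1079.8, 1064 and 1139 (1.54 ± 0.35, log2; limma adjusted p = 0.00106), and the chondroitin enzymes CHST11 (2.66) and CHPF (2.12) also rose. SLC35B2, the carrier that brings the donor into the Golgi, lies outside the symbol form used here. It gave 152, 194 and 131 and then 220.3, 431 and 314 and did not pass (0.95 ± 0.45, log2; limma adjusted p = 0.165). Several carriers of this route, among them SLC26A2 and SLC35D1, are not analysed here.

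Of 7 carriers of nucleosides and nucleotide sugars, 1 fell and 6 did not pass, beside 7.33% of all fitted probe sets that fell. SLC35A5 gave 954, 1028 and 1141 without TGF-beta3 and 582, 418 and 940.3 with it (-1.14 ± 0.34, log2; limma adjusted p = 0.019). The loaded array lay within 2-fold of every array without TGF-beta3, and with that array in place of the unloaded one the gene did not pass. Its other 3 probe sets gave -1.19, 0.07 and -0.09 and did not pass. SLC35A2, which carries UDP-galactose into the Golgi, gave 114, 95.8 and 67.7 and then 136, 215 and 280.2 (1.08 ± 0.58; limma adjusted p = 0.229). SLC35A1, the CMP-sialic acid carrier, differed by 0.07, SLC35A3, the carrier of UDP-N-acetylglucosamine, by 0.76, and SLC29A1, the main nucleoside carrier, by 0.37.

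**Figure D4:**
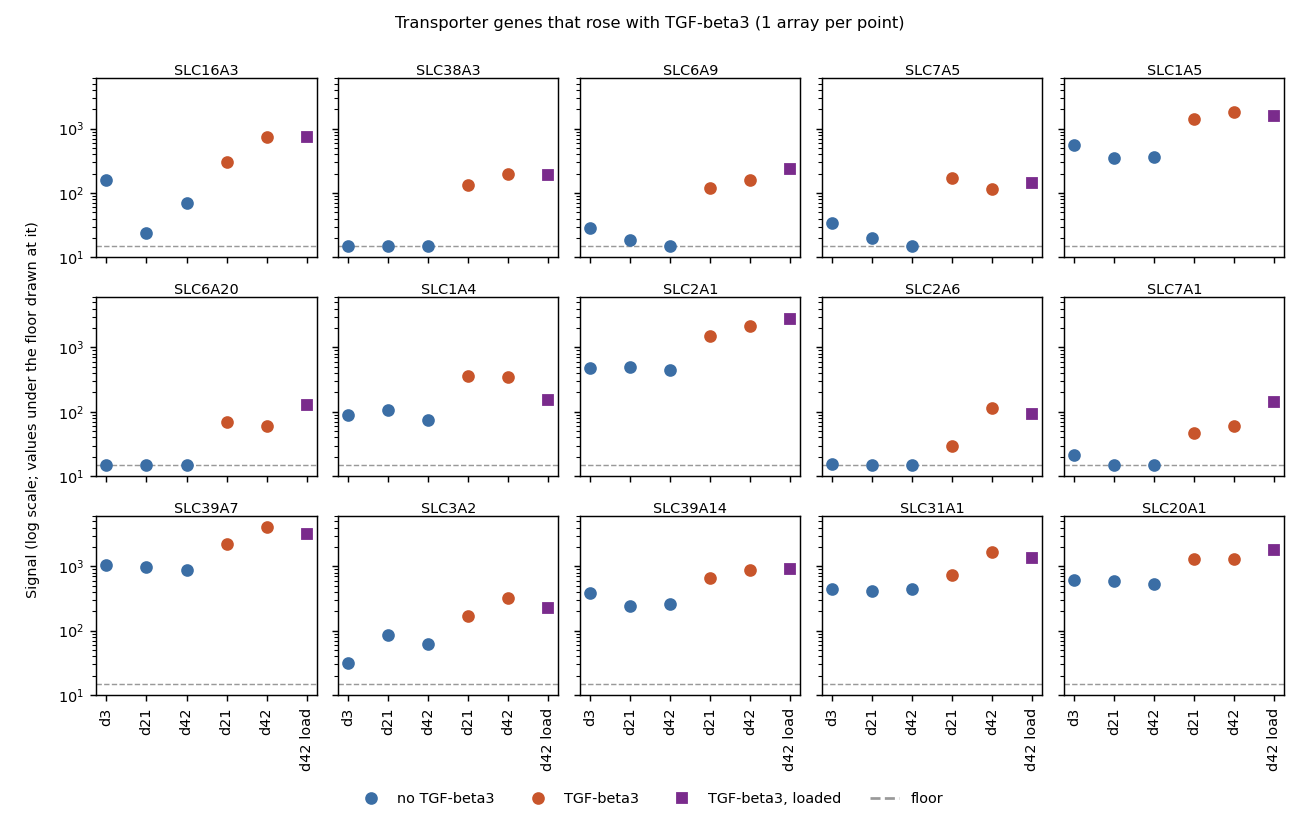
Signal on each array (log scale, 1 array per point) of the 15 transporter genes that rose with TGF-beta3, by limma over days 21 and 42; the dashed line is the floor of 15.1 and values under it are drawn at it. In all 15 panels the 3 arrays with TGF-beta3 lie above the 3 without.

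Among the SLC25 family, the genes that fell carry fatty acids bound to carnitine, pyrimidine nucleotides, and a substrate that is not settled. SLC25A20, which exchanges acylcarnitine for carnitine and so feeds fatty acid oxidation, gave 2938, 3170.3 and 3671 without TGF-beta3 and 1047, 1386 and 1419 with it. It lay 3.03-fold (day 21) and 2.65-fold (day 42) under the matched array (-1.50 ± 0.35, log2; limma adjusted p = 0.00143), and its second probe set fell by 1.81. The arms did not overlap.

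SLC25A34, a mitochondrial carrier of unsettled cargo, was under the floor at day 3, gave 261 and 438 at days 21 and 42 without TGF-beta3 and was under the floor on all 3 arrays with it. It lay at least 17.2-fold (day 21) and at least 28.9-fold (day 42) under the matched array (limma adjusted p = 1.93e-06). SLC25A33, a pyrimidine nucleotide carrier, gave 77.9, 209 and 426 and then 94.2, 140.0 and 52.9 (-1.38 ± 0.47, log2; limma adjusted p = 0.0407). Its day 3 signal lay within the range with TGF-beta3, and the call was lost with quantile normalization (-1.25), with median centring (-1.63) and with arrays scaled to the spikes (-2.19).

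The adenine nucleotide and phosphate carriers that serve ATP synthesis did not pass. SLC25A4 gave 846, 1229 and 1766 and then 721, 818 and 731 (-0.94 ± 0.34, log2; limma adjusted p = 0.0548), SLC25A5 differed by -0.68, SLC25A6 by -0.07 and the phosphate carrier SLC25A3 by -0.52. The other probe sets of SLC25A6 gave 1.33 and -1.02 and that of SLC25A5 gave -0.53, and none of them passed. With quantile normalization SLC25A4, SLC25A5 and SLC25A3 passed, each lower with TGF-beta3. The iron importers of mitochondria, SLC25A37 (0.14) and SLC25A28, did not pass either. SLC25A28 gave 34.6, 25.6 and 29.5 and then 123, 100.5 and 46.0, with every array with TGF-beta3 above every array without (2.02 ± 0.72; limma adjusted p = 0.0521). It passed with the floor at the 60th percentile (0.0469), with the floor value added to the signal (0.0388), without the variance trend (0.0393), with every gene read as the median of its probe sets (0.0101) and with the day 21 or day 42 TGF-beta3 array left out. The oxoglutarate carrier SLC25A11 differed by 1.14 (log2), SLC25A40 by 0.91, the S-adenosylmethionine carrier SLC25A26 by -0.03 and SLC25A16 by -0.79, and none passed. SLC25A15, the ornithine carrier, was over the floor only at day 21 with TGF-beta3 (81.7) and under loading (22.3) and was not tested.

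Markers of fat cells moved with the members that fell. The summed signal of 8 adipocyte markers was 5076 at day 3, 15593 at day 21 and 18279.6 at day 42 without TGF-beta3, and 476, 934 and 760.4 with it, and all 7 that could be tested fell. Of 8 macrophage and blood markers tested, AIF1, CD53 and CD68 fell and none rose. CD14 (-1.07, log2), PTPRC (-1.67) and TYROBP (-0.88) were lower and did not pass. LAPTM5 (0.61) and CSF1R (0.58) were higher and did not pass. The summed signals of the macrophage and blood list were 262, 471 and 625 without TGF-beta3 and 73.2, 216 and 146 with it. Without TGF-beta3 all 9 fallen members were lowest at day 3 and highest at day 42, an order that 25 of the 94 members showed. The adipocyte sum and the macrophage and blood sum both had this order. Among the adipocyte markers CD36, DGAT2, FABP4, LEP and PPARG had it too. ADIPOQ and CIDEC were highest at day 21, and LPL was lower on each later day (1854, 1217 and 1094). The share of all probe sets with this order was not counted. The calls themselves needed high signals at days 21 and 42 without TGF-beta3. AQP7, the glycerol channel of fat cells, was under the floor at day 3, gave 787 and 1175 at days 21 and 42 and was under the floor with TGF-beta3. In these bulk samples fewer cells of a type and less RNA per cell cannot be told apart, and the part of these cells in the falls was not tested.

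**Figure D5:**
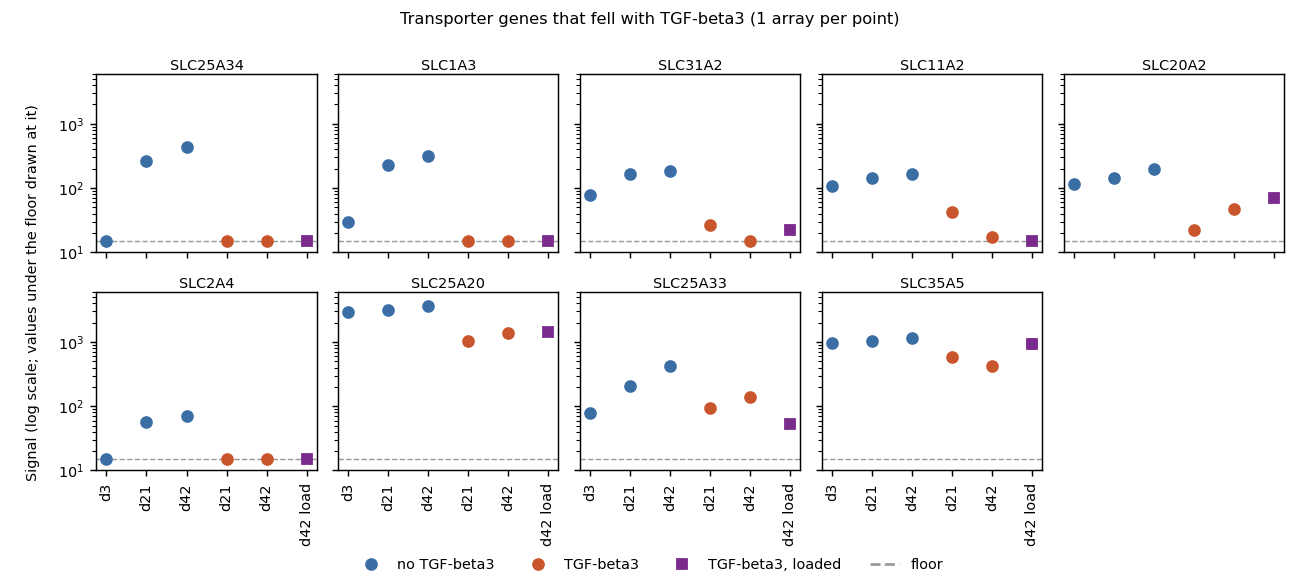
Signal on each array (log scale, 1 array per point) of the 9 transporter genes that fell with TGF-beta3, by limma over days 21 and 42; the dashed line is the floor of 15.1 and values under it are drawn at it. SLC25A34, SLC2A4 and SLC25A33 were low at day 3 without TGF-beta3, and the other 6 genes separate the arms.

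Other classes of transport protein were also measured. Their counts are small beside the background shares of 5.84% risen and 7.33% fallen, and nothing is read from them. Of 12 tested ion pumps, channels and related genes, 2 rose and 1 fell. They were ATP1B1, a subunit of the sodium pump (1.24, log2), ENPP1, which makes pyrophosphate (1.24), and AQP7. Of 6 tested genes of the ABC family, most of which encode ATP-driven transporters, ABCF1 rose by 1.54 and ABCB6 fell by 2.25. No ion pump or ABC gene rose with median centring or with arrays scaled to the spikes. The medians of the pump and ABC lists were 0.01 and -0.27 (log2).

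Apart from SLC6A9, no tested member of the remaining classes passed, and 3 came near the threshold. SLC4A7, a sodium bicarbonate importer, gave 196, 159.6 and 183 and then 437, 317 and 511 (1.12 ± 0.42, log2; limma adjusted p = 0.0689), with no overlap between arms. It passed when the loaded array replaced the unloaded one (limma adjusted p = 0.00302), with the loaded array added (0.043) and with every gene read as the median of its probe sets (0.0328). SLC66A2 gave 19.4, 15.3 and 13.5 and then 33.9, 73.8 and 33.3 (1.72 ± 0.62; limma adjusted p = 0.0587), and passed with every gene read as the median of its probe sets (0.0198). SLC66A3 gave 293, 290.1 and 191 and then 119.8, 88.4 and 116 (-1.19 ± 0.50; limma adjusted p = 0.112), and passed with a floor of 100 (0.0308). SLC46A2 (-1.47; limma adjusted p = 0.142) passed as lower with median centring (0.0486), with spike scaling (0.00196) and when the loaded array replaced the unloaded one (0.0172). SLC12A2, the sodium, potassium and chloride importer that cells use to regulate volume, gave 215, 142 and 125 and then 114, 72.2 and 44.9 and did not pass (-0.55 ± 0.59). The taurine carrier SLC6A6 differed by 0.21 (log2), the monoamine carrier of vesicles SLC18A2 by 0.27, the vitamin C carrier SLC23A2 by -0.68 and the proton-coupled folate carrier SLC46A1 by -0.84. SLC33A1, which brings acetyl-CoA into the endoplasmic reticulum, differed by 0.67, SLC10A3 by 1.18, SLC22A17 by 0.15 and the anion carrier SLC26A11 by -0.57. None of these passed. SLC6A2, the noradrenaline carrier, was over the floor only on the unloaded and loaded day 42 arrays with TGF-beta3 (77.6 and 39.96).

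The size of the TGF-beta3 difference could be set out for each day with no test, since each side is 1 array. At day 21, 22 of 88 members were at least 2-fold higher (25%, against 13.3% of all probe sets compared and 14.1% of those over 50 on at least 1 array) and 17 were at least 2-fold lower (19.3%, against 15.7% and 17%). At day 42, 30 of 92 were higher (32.6%, against 24.5% and 25.2%) and 17 lower (18.5%, against 16.2% and 19.7%). On both days 16 members were at least 2-fold higher and 11 at least 2-fold lower, and none was 2-fold higher on the first day and 2-fold lower on the other. The median of all probe sets at day 42 was 0.21 (log2) as deposited, -0.29 with median centring and -0.999 with arrays scaled to the spikes, and that of the members was 0.47, -0.10 and -0.85. The day 42 split of 30 higher and 17 lower became 25 and 26 with median centring and 14 and 43 with arrays scaled to the spikes. At day 21 the split of 22 and 17 became 14 and 23 with the latter.

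Without TGF-beta3, members moved more between day 3 and day 21 than afterwards. At day 21, 14 of 85 were at least 2-fold higher than at day 3 (16.5%, against 7.18% of all probe sets and 7.38% of those over 50) and 4 were lower (4.71%, against 5.2% and 5.36%). The higher members included SLC1A3 (7.67-fold), SLC25A25 (4.38-fold), a calcium-sensitive ATP-magnesium and phosphate carrier, and SLC29A2 (3.24-fold), a nucleoside carrier. SLC25A34 and SLC2A4 were higher too, by at least 17.2-fold for the former and at least 3.82-fold for the latter. SLC29A2 was over 50 only at day 21 without TGF-beta3. SLC1A3, SLC25A25, SLC25A34 and SLC2A4 were over 50 only at days 21 and 42 without it. These genes thus entered through arrays on which they were high. The adipocyte marker sum was higher at day 21 too, as given above, with 6 of its genes at least 2-fold higher, and its part was not tested. SLC16A3 was 6.77-fold lower at day 21 than at day 3, and SLC8A1, the sodium and calcium exchanger, 2.77-fold lower. A second probe set of SLC16A3 went the other way (15.7 at day 3 and 21.5 at day 21). With arrays scaled to the spikes, which differed by -0.51 (log2) between these arrays, the split of 14 higher and 4 lower became 20 and 1.

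From day 21 to day 42 without TGF-beta3, 3 of 84 members were at least 2-fold higher (3.57%, against 3.29% and 3.3%) and 2 lower (2.38%, against 10.1% and 9.95%). The higher were SLC16A3 (2.96-fold), SLC22A5, a carnitine importer (2.11-fold), and SLC25A33 (2.04-fold), and the lower SLC29A2 (4.03-fold) and SLC3A1 (2.72-fold), the heavy chain of the cystine carrier. SLC29A2 entered only through its day 21 signal here. A second probe set of SLC16A3 went the other way, with 21.5 at day 21 and a value under the floor at day 42. With median centring the split was 6 and 2, with quantile normalization 3 and 1 and with arrays scaled to the spikes 1 and 6.

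With TGF-beta3, 23 of 90 members were at least 2-fold higher at day 42 than at day 21 (25.6%, against 18.1% and 18%) and 12 lower (13.3%, against 14.1% and 16.5%). SLC2A6 was 3.84-fold higher, SLC25A38, a glycine carrier of mitochondria, 3.32-fold, and SLC39A1 and SLC31A1 were among the metal carriers whose day 42 signal was over 2-fold that of day 21. SLC2A6 was over 50 only on the day 42 arrays with TGF-beta3 and entered through them. SLC30A1, the zinc exporter of the cell surface, gave 469 at day 21 and 126 at day 42, 3.71-fold lower, and the metallothioneins MT1A and MT2A were lower at day 42 too. The spikes differed by 1.19 (log2) between these arrays, and scaling to them turned the split of 23 higher and 12 lower into 6 and 38. With median centring it was 15 and 13.

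Loading was compared on the day 42 arrays with TGF-beta3, 1 loaded and 1 unloaded. Of 91 members 10 were at least 2-fold higher under loading (11%, against 10.2% of all probe sets and 11.3% of those over 50) and 10 lower (11%, against 8.2% and 8.09%), and the median difference was -0.02 (log2). The higher members included SLC25A12, a mitochondrial aspartate and glutamate carrier (21.7 unloaded and 73.4 loaded, 3.38-fold), SLC2A8 (25.9 and 82.5, 3.18-fold), SLC35A4 (24.3 and 63.7, 2.62-fold) and SLC7A1 (60.4 and 143, 2.36-fold). SLC4A2, an anion exchanger, and SLC1A1 were under the floor unloaded and gave 79.1 and 77.2 loaded, gains of at least 5.23-fold for the former and at least 5.10-fold for the latter. SLC2A8, SLC4A2 and SLC1A1 were over 50 only on the loaded array, as were SLC37A1 and SLC5A2. These members entered through the array on which they were high, so their difference was partly fixed by the rule.

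The lower members under loading included SLC8A1 (85.8 unloaded and 28.9 loaded, 2.97-fold), SLC25A33 (140.0 and 52.9, 2.65-fold), SLC12A4, a potassium and chloride exporter (222 and 96.7, 2.30-fold), and SLC1A4 (342 and 154, 2.22-fold). The second probe set of SLC1A4 went the other way (35.7 and 57.0). The folate carrier SLC19A1 gave 83.2 unloaded and was under the floor loaded, at least 5.49-fold lower. It was over 50 only on that unloaded array and so entered through it. Of the 15 members that rose with TGF-beta3, SLC7A1 and SLC6A20 (60.2 and 126) were at least 2-fold higher under loading. SLC1A4 was at least 2-fold lower by its brighter probe set only. With arrays scaled to the spikes, which were 0.33 (log2) lower on the loaded array, the split of 10 and 10 became 16 and 3.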

How the data were processed

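Total RNA of 6 construct samples was amplified and hybridised to Affymetrix bovine arrays, per the labels' protocols. The deposited intensity values are MAS5 signals on a linear scale per the submitters' processing notes. The software version is not stated there. They were used as the authors deposited them, with no further scaling in the main analysis. Gene symbols came from the platform annotation. All 163 solute carrier symbols matched RefSeq. No genome build is named for the array, so no coordinates are given.

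Of 24128 probe sets, 112 controls were left out. Values under the 40th percentile (15.1) were set to it before taking log2, and a probe set entered a comparison when at least 1 side was above it. TGF-beta3 was tested in limma 3.58.1 (R 4.3.3; lmFit and eBayes with a variance trend) on the 4 arrays of days 21 and 42 without loading, with terms for day and TGF-beta3, over the 14839 probe sets that 2 or more of them measured above the floor. The prior degrees of freedom were 49.8. P-values were Benjamini-Hochberg adjusted over all of them. With 1 array per condition, the p-values measure no spread between replicates of a condition. Their spread is that between the TGF-beta3 differences of day 21 and day 42, pooled over all probe sets. The small number of arrays limits the precision. Other comparisons have 1 array a side and are given as sizes, called at 2-fold, with no test. On simulated data the limma test of TGF-beta3 over 14839 probe sets recovered 6% of changes of 1 (log2), 68% of changes of 2 and 100% of changes of 3 or 4, and called 9 unchanged probe sets. The simulation drew independent normal noise at the fitted prior spread. It had no day effect and the same TGF-beta3 change on both days. It thus met the assumptions of the fit, which the real data need not do.

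The text names every member that passed, the 2 highest and 2 lowest of each class, a list of carriers of known role in cartilage, the 5 highest and 5 lowest in each comparison by size, the members nearest the signal limit and the partner genes that passed. SLC1A1, SLC25A15, SLC25A37, SLC29A1, SLC30A2, SLC34A1, SLC35A1, SLC39A1, SLC6A2 and the partner genes that did not pass were added after their values were seen. The members, substrate classes and gene lists were chosen with earlier results of these data known, and 3 genes were moved between classes after the files were read. Alternatives covered scaling, floor, variance trend, day term, loaded array, probe set choice and left-out arrays. No reference sequences were used here.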

Additional observations from a re-analysis of the deposited data

How the results depend on the processing

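No member changed from risen to fallen or the reverse under any alternative tried. Of 15 risen and 9 fallen members, the fit with arrays scaled to the spikes kept 6 of the risen, a floor of 100 kept 9, the fit without a variance trend gave 9 risen (8 of them shared), and the fit without a day term kept 6 and 3. Leaving out 1 array at a time, without the day term, gave between 3 and 18 risen and between 0 and 13 fallen members. For size at 2-fold, scaling to the spikes gave 14 higher at day 21, 14 higher and 43 lower at day 42, 16 higher and 3 lower under loading, 1 lower at day 21 against day 3, 1 higher and 6 lower from day 21 to day 42 without TGF-beta3, and 6 and 38 with it. Median centring gave 26 lower at day 42, and 6 higher without and 15 higher with TGF-beta3 from day 21 to day 42. Quantile normalization gave 1 lower from day 21 to day 42 without TGF-beta3. With a floor of 100 the higher and lower counts were 9 and 6 (day 21), 11 and 7 (day 42), 1 and 2 (loading), 4 and 0 (day 21 against day 3), 1 and 0 (day 42 against day 21 without TGF-beta3) and 8 and 4 (with it). A higher floor leaves fewer members to compare and shrinks the folds of those that stay. Taking the median over a gene's several probe sets gave 1 lower (day 21 against day 3) and 0 higher and 4 lower (day 42 against day 21 without TGF-beta3). The cause of the other moves was not tested. The member rule at a signal over 100 (67 genes) and the class move were chosen after seeing the data, and the former left 15 risen and 8 fallen. No paired analysis was possible because the labels carry no replicate numbers to pair; day is already a term of the fit. Signals near the floor limit what can be said of low members, and folds against them are bounds.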
